A study of Homo sapiens with 4 samples.

Results

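The mitochondrial ribosomal proteins of the MRPL and MRPS gene families were examined after *SOX2* knockdown in LN229, a human glioblastoma cell line. Members were the gene probes of the array whose symbol was MRPL or MRPS followed by a digit. This gave 76 of the 20481 named genes, 47 MRPL and 29 MRPS, measured by 88 of 33096 gene probes. The 4 samples were 2 LN229 cultures transfected with siRNA against *SOX2*, the transcription factor under study, and 2 given a mock siRNA without a target (mock knockdown), with no other agent or allele named. The study's methods describe separate transfections, with cells harvested 72 hours later, and do not say which *SOX2* siRNA was used on the arrays. Biotin-labelled cRNA of each sample went onto 1 Human Genome Survey array (Applied Biosystems), a 1-colour array of long oligonucleotides read by chemiluminescence.

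The mitochondrial ribosome (mitoribosome) translates the few messages of the mitochondrial genome, which encode subunits of the respiratory chain. Its ribosomal RNAs are mitochondrial, whereas all of its proteins are encoded in the nucleus, made in the cytosol and imported. Some of these proteins descend from bacterial ribosomal proteins and others exist only in mitochondria. MRPL symbols were given to proteins of the large subunit, which forms peptide bonds, and MRPS symbols to those of the small subunit, which decodes the message.

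Every signal below was divided by its array's 75th percentile (scaled signal), and all changes are log2 differences, *SOX2* knockdown minus mock. Between 63.5% and 68.9% of gene probes exceeded 3 in signal-to-noise ratio (S/N) on the 4 arrays. *SOX2* itself read 0.454 and 0.680 in mock and 0.203 and 0.145 after knockdown. Its log2 change was -1.70 (SE 0.28) with an adjusted p of 0.112 (limma, Benjamini-Hochberg over all features kept), and under 3 other scalings the adjusted p was below 0.05. The treatment label gives SW620, a line from colon cancer, where all others give LN229. Of 9 glial or mesenchymal markers 8 had S/N over 3 on all 4 arrays and *FN1* on 2. Among the 8, *VIM* had scaled signals of 49.5 to 57.8 and *GFAP* of 0.0994 to 0.164. Of 9 colon epithelial markers 1 had it on all 4 arrays (*VIL1*, at most 0.0490), while *CDH1*, *KRT20* and *CDH17* had it on none. The other colon markers had it on 1 or 2 arrays, with a highest signal of 0.0642 (*LGALS4*).

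Most of the family was well measured. Probes of 1 gene ID and symbol were averaged to a feature, in signal and in S/N, giving 79 member features of 28889. A feature was kept where both arrays of a group exceeded 3 in S/N, which left 78 member features among 19086 in all. All 78 had S/N over 3 on each of the 4 arrays, with a lowest value of 4.22 for *MRPL55* and of 16.9 or more for every other member. The 1 feature not kept was the second feature of *MRPL16* (hCG2042325), whose S/N was below 0 on every array, while the other *MRPL16* feature was kept. *MRPL14*, *MRPL16* and *MRPL50* had 2 features each, and all other members had 1. Single probes within a kept feature could be weak or differ. A probe of *MRPS10* had an S/N as low as -2.05 and a probe of *MRPL30* as low as 0.61. The 2 probes of *MRPS35* changed by 0.36 and -0.13. RefSeq lists pseudogenes for 41 of the 76 genes, up to 9 for *MRPS21*, and whether the probes also bind such copies was not tested.

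No mitochondrial ribosomal protein gene passed the adjusted test between *SOX2* knockdown and mock, and the family had no common direction. RNA came from whole cultures, so fewer cells expressing a gene and less RNA per cell cannot be told apart. The median log2 change of the 78 member features was 0.01, beside -0.003 over all features kept, and 43 members were above 0 (55.1%, beside 49.6% of all features) and 35 below. Their changes ran from -0.64 (*MRPS18A*) to 0.54 (*MRPL45*) with an SD of 0.21, beside an SD of 0.39 over all features kept, which include dimmer features. The median SE of a member was 0.14.

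No member passed an adjusted p of 0.05 (limma, Benjamini-Hochberg over all features kept), where the share called over all features was 0.0%, and the smallest adjusted p of a member was 0.130. At an adjusted p under 0.1, a call made for 1.35% of all features, there was again no member. At an unadjusted p under 0.05, 4 of the 78 members passed (5.13%), 2 higher and 2 lower, beside 17.1% of all features. No member exceeded the 2-fold cutoff that the study's methods use, which 2.39% of all features passed. One member exceeded 1.5-fold, *MRPS18A*, which was lower, beside 9.9% of all features (4.88% lower) and beside 7.81% of those above this S/N on every array.

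The 2 groups were fully apart, with both arrays of one above both of the other, for 38 of 78 members, 23 higher and 15 lower after *SOX2* knockdown. Over all features kept this held for 47.3%, 21.2% higher and 26.1% lower, so the count of members was near the background. The count rests on the scaling: with each array divided by its median instead of its 75th percentile it was 8, beside 35.6% of all features, and 7 of those 8 were among the 38. The 8 features were of *MRPL14*, *MRPL34*, *MRPL42*, *MRPL45*, *MRPS6*, *MRPS18A*, *MRPS18C* and *MRPS21*.

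**Figure D1:**
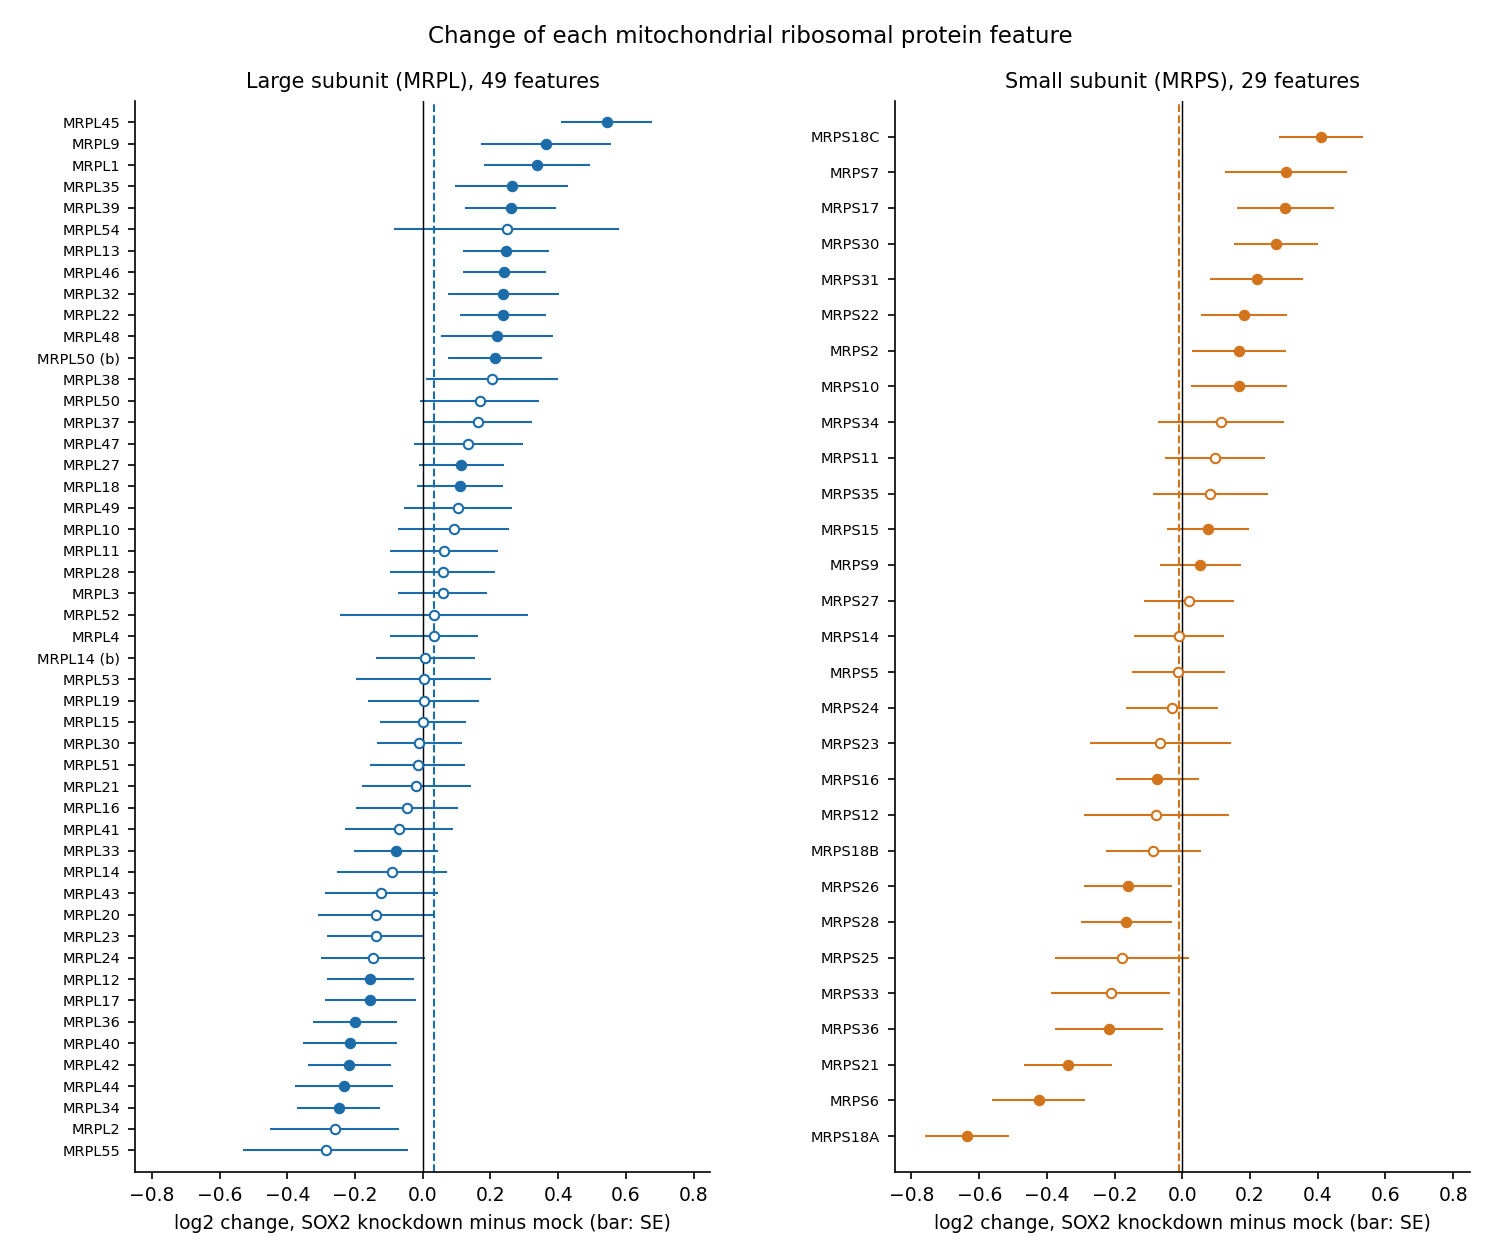
Log2 change of each of the 78 kept features, *SOX2* knockdown minus mock, with the standard error of limma as a bar, for the large subunit (left, 49 features) and the small subunit (right, 29 features). Filled points are members whose groups did not overlap, open points those whose groups did, (b) marks the second feature of a gene, and the dashed lines are the medians, 0.03 and -0.01; most points lie within 0.3 of 0, with *MRPS18A* lowest at -0.64 and *MRPL45* highest at 0.54.

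The large and small subunits were then compared in each of the 4 pairs of a knockdown and a mock array. These pairs share arrays and are not replicates of each other. Against mock 1, both knockdown arrays gave higher family medians. The median of the large subunit was 0.12 for knockdown 1 minus mock 1 and 0.06 for knockdown 2 minus mock 1, and that of the small subunit was 0.11 and 0.07. Against mock 2 the medians fell on the other side of 0. They were -0.02 and -0.08 for the large subunit and -0.07 and -0.12 for the small subunit, for knockdown 1 and knockdown 2. The number of members above 0 followed the mock array used, with 58 and 50 of 78 against mock 1 and 34 and 28 of 78 against mock 2.

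Compared as single arrays, the mock arrays differed from each other somewhat less than knockdown and mock arrays did, and the knockdown arrays still less. Over members the SD of the difference was 0.20 between the mock arrays and 0.13 between the knockdown arrays. In the 4 knockdown and mock pairs it was 0.23 to 0.25. Between the group means it was 0.21, but means of 2 arrays vary less than single arrays, so this value is not on the same footing. Between the mock arrays (mock 2 minus mock 1) the median difference was 0.20 for the large subunit and 0.15 for the small subunit, with 66 of 78 members above 0, beside a median of 0.02 over all features kept. Between the knockdown arrays (knockdown 2 minus knockdown 1) it was -0.06 and -0.05, with 21 of 78 members above 0. Mock 1 held the lowest signal of the 4 arrays for 45 members, where it did so for 25.4% of all features, and mock 2 held the highest for 38 members, beside 31.5% of all features. For 46 of the 78 members (59.0%) the mock arrays lay further apart than the group means, beside 54.1% of all features. This count also sets single arrays against means of 2 arrays. The 75th percentile of the deposited probe signals was 6.0 on mock 1 and 6.80 on mock 2, and 6.64 and 5.91 on the knockdown arrays.

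Over the group means the large-subunit median was 0.03, with 29 of 49 features above 0, and the small-subunit median -0.01, with 14 of 29 above 0. The large minus small difference of these medians was 0.04. A separate measure took large minus small medians within each array, from signals centred per feature. It was -0.04 for mock 1, 0.02 for mock 2, -0.008 for knockdown 1 and -0.0007 for knockdown 2. Between replicate arrays these values had an SD of 0.03. That SD belongs to the single-array values and does not measure the spread of the 0.04, a difference between medians of changes. In the 4 pairs the large minus small difference of median changes was 0.01, 0.05, -0.02 and 0.05. The order is knockdown 1 against mock 1 and mock 2, then knockdown 2 against mock 1 and mock 2. The same difference was 0.05 between the mock arrays (mock 2 minus mock 1) and -0.0025 between the knockdown arrays (knockdown 2 minus knockdown 1). Without knockdown 2 the difference over the group means was 0.0034. Groups did not overlap for 21 large-subunit features (13 higher, 8 lower) and 17 small-subunit features (10 higher, 7 lower), which is 42.9% and 58.6% of them, beside 47.3% of all features (21.2% higher, 26.1% lower). At an unadjusted p under 0.05 there was 1 large-subunit member (2.04%) and 3 small-subunit members (10.3%), both below the 17.1% of all features.

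**Figure D2:**
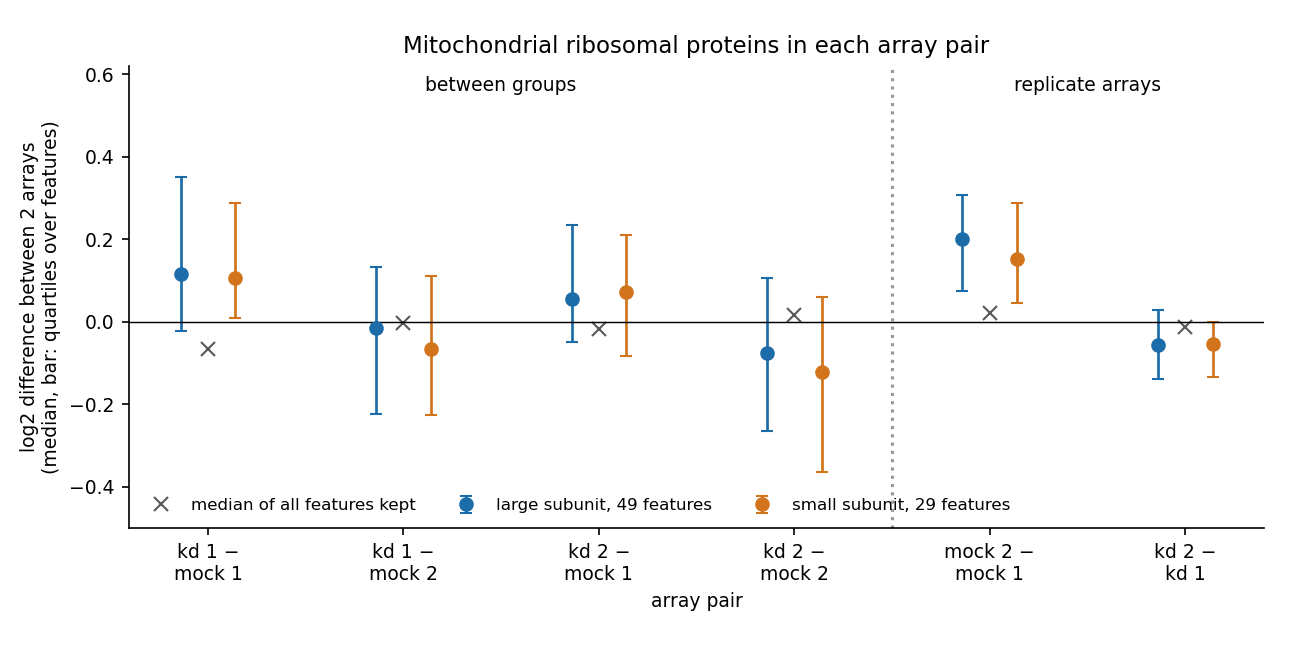
Median log2 difference between 2 arrays over the 49 large-subunit and 29 small-subunit features, with bars for the quartiles over features, in the 4 knockdown and mock pairs (left of the dotted line) and between replicate arrays (right). Medians are above 0 against mock 1 and below 0 against mock 2 in both subunits, and the mock arrays differ from each other by 0.20 and 0.15; crosses are the medians of all features kept.

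Subunits are assigned by symbol elsewhere in this text, and names and structure do not match for 3 of these genes. In structures of the human mitoribosome the MRPS18A protein (now called mL66) and the MRPS30 protein (mL65) are part of the large subunit, and *MRPS36* has been renamed *KGD4*, a component of the 2-oxoglutarate dehydrogenase complex. When *MRPS18A* and *MRPS30* were counted in the large subunit and *MRPS36* was left out, the medians were 0.03 for 51 large-subunit and 0.004 for 26 small-subunit features, a difference of 0.03. Members whose uniform name gives them the place of a bacterial ribosomal protein (47 features) had a median of 0.003. The other members (31 features, among them *MRPS18A* and *MRPS18B*, which are related to bacterial S18 but lie elsewhere) had one of 0.03.

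Among the MRPS symbols the members furthest apart were paralogs. *MRPS18A*, *MRPS18B* and *MRPS18C* encode related proteins of the bacterial S18 family, of which the MRPS18C product (bS18m) occupies the place of the bacterial protein on the small subunit and the MRPS18B product (mS40) a separate place on it. *MRPS18A* (hCG19012) read 6.75 and 6.50 in mock and 4.35 and 4.17 after knockdown, as scaled signals. The knockdown arrays were both lower than either mock array, and the gap between the groups was larger than the distance between replicates in either. The mean was 6.62 ± 0.175 (SD, n = 2) in mock and 4.26 ± 0.126 (SD, n = 2) in the knockdown group, which gave a ratio of 0.644.

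The log2 change of *MRPS18A* was -0.64 (SE 0.12) with an adjusted p of 0.130 (limma, Benjamini-Hochberg). It lay between -0.67 and -0.53 under the 12 alternative settings that keep all 4 arrays, with adjusted p from 0.0539 to 0.516, and between -0.67 and -0.61 when 1 array was left out. Its groups stayed apart under each other scaling, the other background correction and the authors' table. The remaining settings leave its scaled values as they were or leave out 1 array, so they could not make its groups overlap. No setting that keeps all 4 arrays gave it an adjusted p under 0.05 (limma, Benjamini-Hochberg). RefSeq lists 1 pseudogene of this gene.

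*MRPS18C* (hCG2027585) moved the other way. It read 2.75 and 2.69 in mock and 3.51 and 3.72 after knockdown. Both knockdown arrays were above the mock arrays. The ratio of the means was 1.33 and the log2 change 0.41 (SE 0.12), with an adjusted p of 0.225 (limma, Benjamini-Hochberg). Its 2 probes changed by 0.46 and 0.38, each with both knockdown arrays above both mock arrays. RefSeq lists 6 pseudogenes of this gene.

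*MRPS18B* (hCG2039591) read 1.03 and 1.21 in mock and 1.06 and 1.05 after knockdown. The knockdown arrays lay between the mock arrays. Its log2 change was -0.09 (SE 0.14), and without mock 2 it was 0.03.

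**Figure D3:**
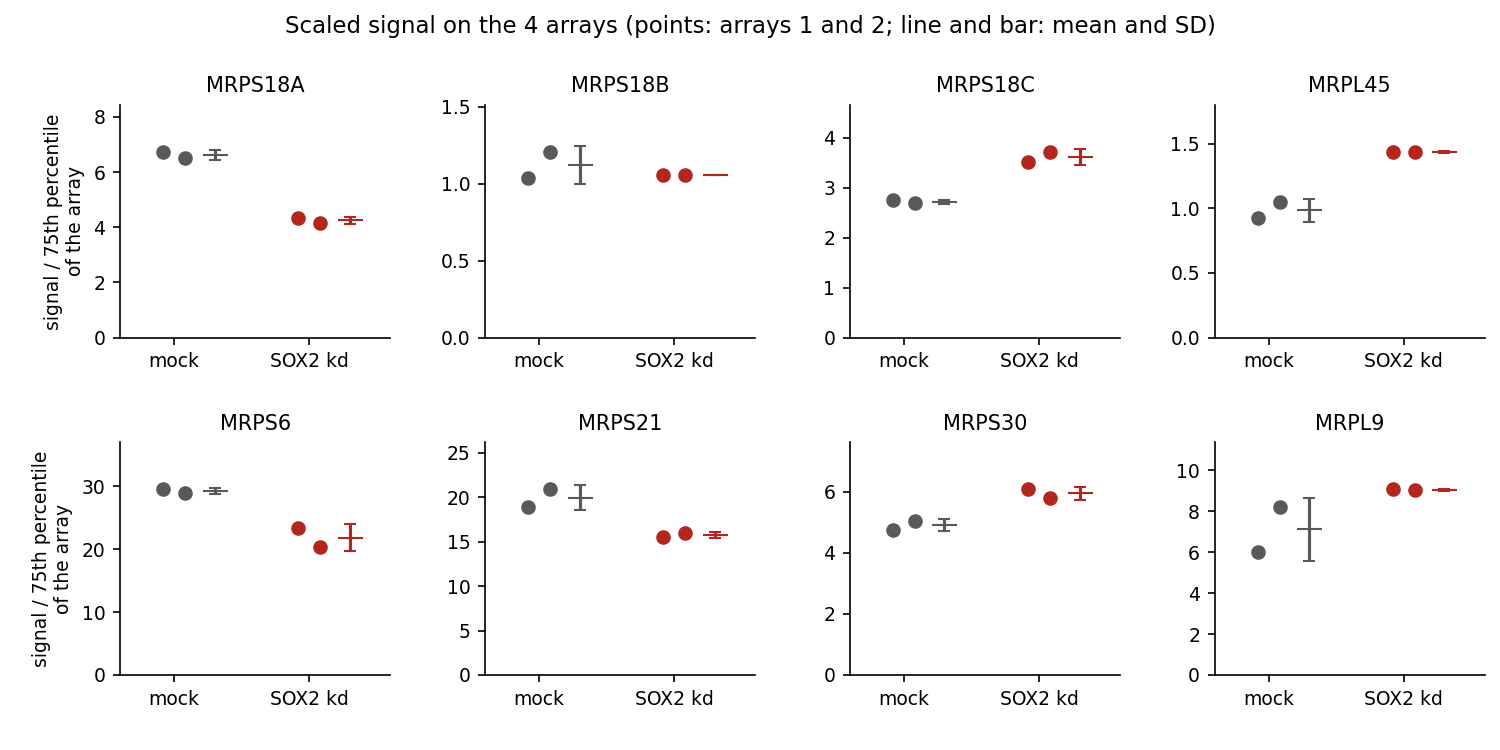
Scaled signal (signal divided by the 75th percentile of its array, linear axis from 0) on the 4 arrays for *MRPS18A*, *MRPS18B*, *MRPS18C*, *MRPL45*, *MRPS6*, *MRPS21*, *MRPS30* and *MRPL9*, with points for arrays 1 and 2 of each group and a line and bar for the mean and SD (n = 2). *MRPS18A* is at 6.75 and 6.50 in mock and at 4.35 and 4.17 after *SOX2* knockdown, *MRPS18C* is higher after knockdown, and the *MRPS18B* knockdown arrays lie within the mock range.

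The next lower members with MRPS symbols, *MRPS6* and *MRPS21*, belong to bacterial families. *MRPS6* encodes bS6m, whose bacterial counterpart pairs with S18 on the platform of the small subunit. It read 29.6 and 28.9 in mock and 23.4 and 20.4 after knockdown. The knockdown arrays were both lower than the mock arrays, by a ratio of 0.747. The log2 change was -0.42 (SE 0.14) with an adjusted p of 0.244 (limma, Benjamini-Hochberg).

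*MRPS21* encodes bS21m, another protein of the platform. It read 18.9 and 20.9 in mock and 15.5 and 16.0 after *SOX2* knockdown. Both knockdown arrays were below both mock arrays, for the feature and for each of its 2 probes, which changed by -0.28 and -0.36. The log2 change of the feature was -0.34 (SE 0.13) with an adjusted p of 0.304 (limma, Benjamini-Hochberg). RefSeq lists 9 pseudogenes of this gene. *MRPS36* was at 1.72 and 2.10 in mock and at 1.71 and 1.57 after knockdown, a log2 change of -0.22 (SE 0.16). Its first knockdown array and its first mock array were nearly equal.

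On the higher side of the MRPS symbols stood *MRPS7* (uS7m, a protein of the head of the small subunit), *MRPS17* (uS17m, which binds ribosomal RNA) and *MRPS30*. *MRPS7* was at 2.11 and 2.77 in mock and at 3.04 and 2.94 after *SOX2* knockdown, a log2 change of 0.31 (SE 0.18). *MRPS17* was at 2.85 and 3.26 in mock and at 3.93 and 3.60 after knockdown, a log2 change of 0.30 (SE 0.14). *MRPS30* was at 4.77 and 5.05 in mock and at 6.10 and 5.80 after knockdown, a log2 change of 0.28 (SE 0.12). In all these the groups did not overlap, and none passed an unadjusted p of 0.05 (limma). *MRPS12*, which encodes the decoding-site protein uS12m, was at 1.56 and 2.16 in mock and at 1.90 and 1.60 after knockdown. Its groups overlapped, and its log2 change of -0.08 (SE 0.21) became 0.16 without mock 2.

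Of the members with MRPL symbols *MRPL45* changed most. Its product, mL45, lies at the exit of the peptide tunnel and takes part in holding the mitoribosome at the inner membrane. It read 0.923 and 1.05 in mock and 1.44 and 1.43 after knockdown. Both knockdown arrays were above the mock arrays, and they differed from each other by less than the mock arrays did. The mean was 0.986 ± 0.0894 (SD, n = 2) in mock and 1.43 ± 0.00505 (SD, n = 2) in the knockdown group, which gave a ratio of 1.46.

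The log2 change of *MRPL45* (hCG1642774) was 0.54 (SE 0.14) with an adjusted p of 0.174 (limma, Benjamini-Hochberg). It lay between 0.51 and 0.60 under the 12 alternatives that keep all 4 arrays, with adjusted p from 0.0934 to 0.586, and between 0.45 and 0.64 when 1 array was left out. Without mock 2, *MRPL45* (1.55-fold), *MRPL9* and *MRPL54* also exceeded 1.5-fold.

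The next higher members were *MRPL9*, *MRPL1*, *MRPL35*, *MRPL39* and *MRPL54*. *MRPL9* (bL9m) was at 6.03 and 8.21 in mock and at 9.09 and 9.02 after *SOX2* knockdown, a log2 change of 0.37 (SE 0.19). *MRPL1*, the protein of the L1 stalk next to the exit site for tRNA, was at 1.65 and 1.97 in mock and at 2.40 and 2.15 after knockdown, a log2 change of 0.34 (SE 0.16). In both, mock 1 was the lowest array and the groups did not overlap. *MRPL35* (bL35m) was at 1.03 and 1.31 in mock and at 1.38 and 1.41 after knockdown. *MRPL39* (mL39, a mitochondrial protein without a counterpart in the bacterial ribosome) was at 1.21 and 1.28 in mock and at 1.57 and 1.41 after knockdown. Their groups did not overlap either, with log2 changes of 0.26 each (SE 0.17 and 0.13). *MRPL54* was at 1.18 and 2.10 in mock and at 1.62 and 2.15 after knockdown, so its groups overlapped, and its log2 change of 0.25 had the largest SE of any member, 0.33.

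The lower members with MRPL symbols changed less. *MRPL55* (bL31m), the dimmest member kept, was at 0.0979 and 0.148 in mock and at 0.0922 and 0.106 after *SOX2* knockdown, a log2 change of -0.29 (SE 0.24). *MRPL2* (uL2m, which binds ribosomal RNA close to the peptidyl transferase centre) was at 0.262 and 0.326 in mock and at 0.271 and 0.220 after knockdown, a log2 change of -0.26 (SE 0.19). The groups of both overlapped. *MRPL34* (bL34m) was at 5.39 and 5.70 in mock and at 4.66 and 4.67 after knockdown, with groups apart and a log2 change of -0.25 (SE 0.12). *MRPL44*, which encodes a protein with an RNase III-like fold, was at 1.57 and 1.77 in mock and at 1.504 and 1.34 after knockdown, a log2 change of -0.23 (SE 0.14). The groups were apart here too, as they were for *MRPL42* and *MRPL40*, whose log2 changes were -0.22 and -0.21.

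*MRPL12* encodes the stalk protein bL12m, which recruits translation factors. It was at 5.80 and 6.33 in mock and at 5.31 and 5.59 after *SOX2* knockdown. The groups were apart, and the log2 change of -0.15 (SE 0.13) was close to its SE. *MRPL41* was at 2.74 and 3.39 in mock and at 2.86 and 2.95 after knockdown. The knockdown arrays lay between the mock arrays, and the log2 change of -0.07 (SE 0.16) became 0.09 without mock 2.

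Stretches of promoter are shown for the S18 paralogs, to set the member that was lower beside its relatives, and for *MRPL45* and *MRPS6*, which with *MRPS18A* and *MRPS18C* were the 4 members at an unadjusted p under 0.05. Each runs 120 bases, from 90 before the annotated start, and is read 5′ to 3′ from RefSeq (GRCh38.p14). They are chr6:43687762-43687881 (minus strand) for *MRPS18A*, chr6:30617750-30617869 (plus strand) for *MRPS18B*, chr4:83455968-83456087 (plus strand) for *MRPS18C*, chr17:38297078-38297197 (plus strand) for *MRPL45* and chr21:34073488-34073607 (plus strand) for *MRPS6*. Capitals mark letters of the ETS motif (CCGGAAG) or the YY1 motif (AAGATGGC), on either strand.
MRPS18A: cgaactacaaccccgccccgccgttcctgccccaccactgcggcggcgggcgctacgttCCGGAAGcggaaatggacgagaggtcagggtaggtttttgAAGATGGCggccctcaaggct
MRPS18B: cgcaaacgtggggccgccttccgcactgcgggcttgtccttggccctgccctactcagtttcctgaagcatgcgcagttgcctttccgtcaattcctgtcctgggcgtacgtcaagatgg
MRPS18C: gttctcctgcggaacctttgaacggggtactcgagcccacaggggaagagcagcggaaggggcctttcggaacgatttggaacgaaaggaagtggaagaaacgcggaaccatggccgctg
MRPL45: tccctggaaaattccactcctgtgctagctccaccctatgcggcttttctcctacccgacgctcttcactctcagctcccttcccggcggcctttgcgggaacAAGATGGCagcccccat
MRPS6: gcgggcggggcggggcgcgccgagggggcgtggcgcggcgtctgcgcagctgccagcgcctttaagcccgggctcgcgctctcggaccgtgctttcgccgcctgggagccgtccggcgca

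*MRPS18A* held ETS letters 31 bases before its start and YY1 letters 9 bases after it, and *MRPL45* held YY1 letters 13 bases after its start. In *MRPS18B* the YY1 letters begin near the 3′ end of the stretch and run past it. *MRPS18C* held ETS letters further upstream, and in *MRPS6* neither was found in the whole window of 300 bases. The members with the largest changes in opposite directions, *MRPS18A* and *MRPL45*, thus both held YY1 letters. A match of letters is a description and not evidence of a bound factor.

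Promoter windows of 300 bases (250 before the start to 50 after) were given for 68 of the member genes, 84 windows in all. ETS letters were in 38.1% of them, beside 10.3% of the windows of all genes and 12.8% of those of protein-coding genes. YY1 letters were in 27.4%, beside 2.89% and 3.53%. Of the 24 YY1 matches 16 (66.7%) began at or after the start, beside 49.5% of the matches in all genes. The NRF1 motif (the palindrome of GCGCA and its reverse complement) was in 1.19%, beside 1.24% and 1.5%. It is a longer string than the other motifs and near matches were not counted, so its share cannot be set beside theirs. Large and small subunit windows were alike, with ETS letters in 36.0% and 41.2% and YY1 letters in 28.0% and 26.5%, and 8 genes held both. The ETS letters end in the 3 letters (AAG) with which the YY1 letters begin, so matches can share bases, and 0 member windows held the joined form.

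Members with and without these letters changed little. The median log2 change was 0.003 for 29 features with ETS letters and 0.03 for 41 without, and 0.12 for 22 features with YY1 letters and 0.003 for 48 without. Features with YY1 letters ran from -0.64 to 0.54. The median difference of 0.18 between the mock arrays is a shift over all members, which members with and without letters can share. It therefore does not measure the spread of a difference between them. That spread was not computed, and the differences were not tested.

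The other genes of mitochondrial translation were examined by lists. Mitoribosome subunits under other symbols (6 features, such as *DAP3* and *ICT1*) had a median log2 change of 0.02, from -0.13 (*MRP63*) to 0.12 (*ICT1*), and none passed an unadjusted p of 0.05 (limma). The next lowest was *DAP3* at -0.07 and the next highest *CHCHD1* at 0.11. Translation factors (14 features) had a median of -0.03, with 5 above 0 and 9 below. Among them 1 passed an unadjusted p of 0.05, *TUFM*, the elongation factor that brings aminoacyl-tRNA to the mitoribosome. *TUFM* was at 4.50 and 5.89 in mock and at 3.54 and 3.29 after *SOX2* knockdown. Both knockdown arrays were below both mock arrays, with a log2 change of -0.59 (SE 0.18) and an adjusted p of 0.229 (limma, Benjamini-Hochberg).

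The other translation factors at the ends of the list did not pass. *MTFMT*, which formylates the initiator methionyl-tRNA, had a log2 change of -0.29 (SE 0.14). On the higher side were *CCDC44* (now *TACO1*, an activator of the translation of a cytochrome oxidase subunit) with 0.44 (SE 0.20) and the recycling factor *MRRF* with 0.36 (SE 0.15). Assembly factors (19 features) had a median of 0.10, with 11 above 0 and 8 below, and the median was -0.02 without mock 1. *NGRN*, needed for the large-subunit ribosomal RNA, passed an unadjusted p of 0.05 (limma). It was at 4.99 and 5.35 in mock and at 7.14 and 6.71 after knockdown, a log2 change of 0.42 (SE 0.13). The ribosomal RNA methyltransferase gene *RNMTL1* had the highest change of the list, 0.57 (SE 0.26), which was 0.23 without mock 1 and 0.92 without mock 2. At the lower end were *TFB1M*, which dimethylates the small-subunit ribosomal RNA, with -0.34 (SE 0.14) and *C18orf22* (now *RBFA*, a small-subunit maturation factor) with -0.30 (SE 0.15).

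Regulators of mitochondrial transcription and of the nuclear genes for mitochondrial proteins (14 features) had a median log2 change of 0.16, with 11 above 0 and 3 below. Leaving out 1 array moved this median to 0.02 without mock 1 (8 above 0), 0.08 without knockdown 1 (7 above 0), 0.26 without mock 2 and 0.28 without knockdown 2. At an unadjusted p under 0.05, 4 features were higher (28.6%), beside 7.96% of all features, and none lower. They were *MYC*, *GABPB2* and both features of *GABPA*, the subunits of GABP, a factor that binds ETS letters. The *GABPA* probes are also annotated to its pseudogene, and the sources cannot be told apart. *MYC* was at 0.862 and 1.03 in mock and at 1.57 and 1.54 after *SOX2* knockdown, a log2 change of 0.72 (SE 0.15). *GABPB2* was at 1.41 and 1.37 in mock and at 2.22 and 2.14 after knockdown, a log2 change of 0.65 (SE 0.12). The groups of both were apart, and limma with Benjamini-Hochberg gave adjusted p of 0.140 and 0.127. *NRF1*, a factor known for its sites in promoters of nuclear genes for mitochondrial proteins, had a log2 change of -0.39 (SE 0.26) with overlapping groups, which was -0.71 without mock 1, -0.08 without mock 2 and -0.24 without knockdown 2. The coactivator *PPARGC1B* had one of -0.13 (SE 0.12). *PPARGC1A* was not kept.

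Beside these lists stood the genes of the cytosolic ribosome and of the respiratory chain. Cytosolic ribosomal proteins (102 features of 73 genes) had a median log2 change of -0.08, with 28 above 0 and 74 below. Nuclear-encoded respiratory subunits (81 features) had a median of -0.18, with 16 above 0 and 65 below, and 4 (4.94%) were lower at an unadjusted p under 0.05 (limma), beside 9.17% of all features. In 42 of them (51.9%) both knockdown arrays were below the mock arrays, beside 26.1% of all features. Over the 16 alternatives the median of the respiratory subunits ran from -0.28 to -0.07 and that of the cytosolic ribosomal proteins from -0.20 to -0.003. That of the mitochondrial ribosomal proteins ran from -0.06 to 0.09. Each of these medians was highest without mock 2, where the median over all features kept was -0.06. Relative to that median, the respiratory subunits lay at -0.009 and the cytosolic ribosomal proteins at 0.06. The lists share the 4 arrays, and the differences between them were not tested.

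**Figure D4:**
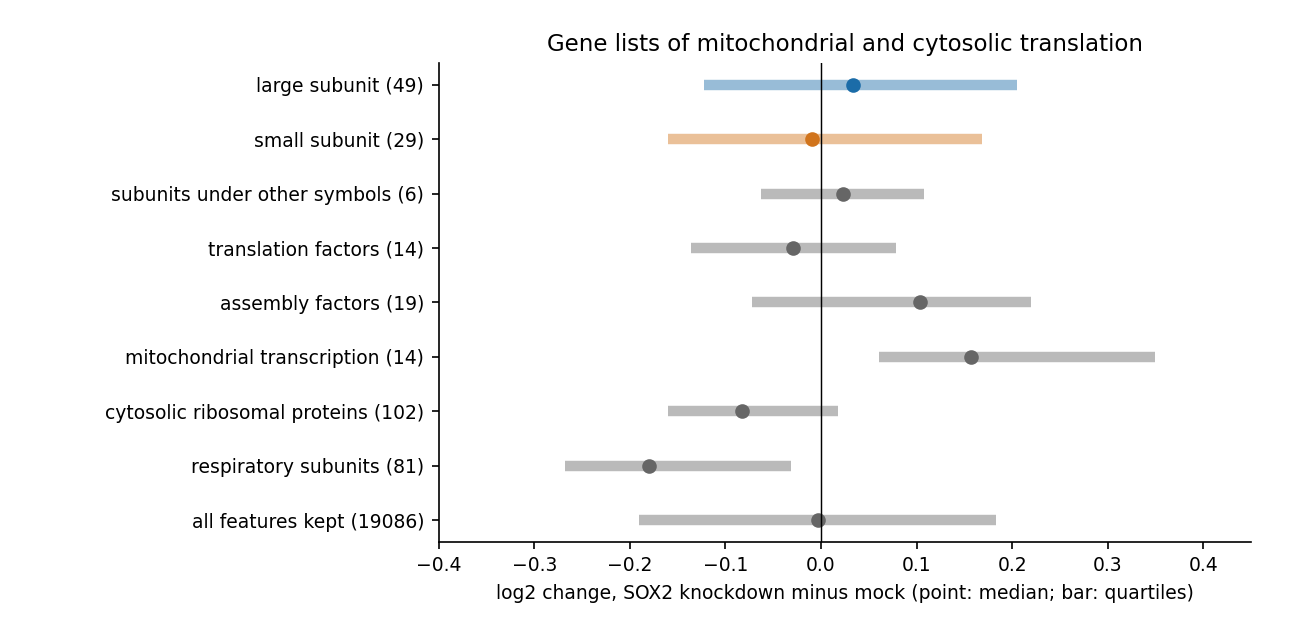
Median log2 change, *SOX2* knockdown minus mock, of each gene list (points), with the quartiles over its features as bars and the number of features in parentheses. Both mitoribosomal subunits have medians near that of all features kept (0.03 and -0.01 beside -0.003). The respiratory subunits lie lowest (-0.18, or -0.07 without mock 2, beside -0.06 over all features there). The mitochondrial transcription list lies highest (0.16, or 0.02 without mock 1).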

How the data were processed

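Groups came from the source names and replicate numbers from the titles of the labels. The deposited scanner files give each probe an intensity, the normalized signal, which the authors' software had already normalized, and its S/N, a deposited score. The authors' second deposited table holds a linear ratio per probe, with a floor, and served as an alternative. The software version and the meaning of its flags are not given in the sources used here. With 2 arrays per group, their number limits the precision. The limma p-values rest on the spread between the arrays of a group, array and scaling differences included, with variances moderated across features.

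In all, 210 probes flagged at 5000 or more were left out. The authors' methods average probes by Celera gene ID. As 979 of 27739 gene IDs (9 of them with a member) hold probes of several symbols, probes were averaged here by gene ID and symbol, a change made after seeing the data. Arrays were divided by their 75th percentile, floored at 0.01 of it and logged (log2), and features with S/N over 3 on both arrays of a group were kept. Changes were tested with limma 3.58.1 in R 4.3.3 (lmFit, eBayes, two-sided, no block) and p-values adjusted by Benjamini-Hochberg across the kept features, and the script was checked on simulated data. The exact permutation test of 2 against 2 cannot go below p = 0.333. All 76 symbols matched RefSeq's gene table (GRCh38.p14).

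Named members were *SOX2*, those over 1.5-fold, the 6 largest changes per direction in the large and the 4 in the small subunit, a short list of members with known roles, and the 2 extremes per direction of each pathway list. Features outside this rule were named after their values were seen, and the line markers were chosen late. Members and lists were chosen with earlier results of these data known. Alternatives covered scaling, background, floors, filters, probes, variance model, replicate block, the authors' table and leaving out each array. Same-numbered arrays of the groups deviated in opposite directions (r = -0.50 over 19086 features), so the numbers were not taken as pairs.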

Additional observations from a re-analysis of the deposited data

How the results depend on the processing

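No member passed an adjusted p of 0.05 (limma, Benjamini-Hochberg) under any setting, though the count over all features, 0 in the main fit, was 692 with median scaling, 674 with no further scaling, 663 in the authors' table, 263 with a variance trend and 3 where S/N had to exceed 3 on every array. The 38 members with groups apart became 8 with median scaling, 8 with no further scaling and 10 in the authors' table, beside 35.6%, 34.7% and 35.2% of all features, and 48 to 68 when 1 array was left out (68 without mock 1, 66 without mock 2, 50 without knockdown 2 and 48 without knockdown 1, beside 80.5%, 77.2%, 66.4% and 70.6% of all features). The 4 members at an unadjusted p under 0.05 became 1 with each of these 3 scalings (beside 11.5% to 11.6% of all features), 11 with a floor of 0.05 (20.3%), 8 with a variance trend (17.7%) and 0 to 4 when 1 array was left out (0 without knockdown 2, beside 7.55% of all features, 1 without knockdown 1, beside 8.06%, and 2 without mock 1, beside 16.5%). With the replicate number as a block that count was 1 (8.89% of all features). With the numbers crossed, a pairing chosen after seeing the data, it was 8 (26.4%). The count over all features at an adjusted p under 0.05 (limma, Benjamini-Hochberg) stayed at 0 with either block. The groups apart, folds and medians do not use the block and could not move with it. The 1 member over 1.5-fold became 1 to 4 (4 without mock 2, beside 11.7% of all features). The large minus small difference of 0.04 ran from 0.0034 to 0.0556 when 1 array was left out, the lowest without knockdown 2.

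Of 656 values of 41 named genes over the alternatives, 645 kept their direction and their side of the threshold, 3 were *SOX2* passing it (adjusted p from 3.53e-07 to 4.46e-07), and 8 turned. Their values with 1 array left out ran from -0.22 to 0.085 for *MRPL41*, -0.58 to 0.012 for *MRPL55*, -0.31 to 0.16 for *MRPS12*, -0.20 to 0.026 for *MRPS18B*, -0.27 to 0.0034 for *MRP63* and -0.24 to 0.11 for *DAP3*, each highest without mock 2 and lowest without mock 1, and from -0.17 (without mock 1) to 0.66 (without mock 2) for *MRPL54*. *MRPS12* also turned without knockdown 2, to 0.043. The cause of these changes was not tested. Of the 78 members 43 kept their sign in all 16 alternatives, 24 higher and 19 lower. The floors, S/N filters, variance trend and blocks leave the log2 changes of members and named genes as in the main fit. Signs could not turn there, so the counts of kept direction rest on the other alternatives.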
